A study of Homo sapiens with 4 samples.

Results

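The 9 genes described here encode enzymes of the tricarboxylic acid (TCA) cycle and the isocitrate dehydrogenases. They were taken by symbol: CS, IDH1, IDH2, IDH3A, OGDH, DLST, SUCLG1, FH and MDH2. Each symbol was found once among the 12912 genes of the count table, and all 9 were among the 12335 genes that passed the filter on low counts. The cells were 786-O, a human clear cell renal cell carcinoma line that lacks functional VHL, the tumor suppressor that marks hypoxia-inducible factors for degradation. Both groups came from 786-OTR, the line carrying a triple reporter of GFP, luciferase and thymidine kinase. The 786-O-Ctrl cells remained VHL-deficient, and in the 786-O-VHL cells wild type HA-tagged VHL had been restored with a retroviral vector. Each group was 1 subline with 2 RNA-seq libraries. No source states that the libraries of a group came from separate cultures, so p-values measure only the spread between these libraries, which may be technical.

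The TCA cycle runs in the mitochondrial matrix. Acetyl-CoA and oxaloacetate condense to citrate, which is oxidized through isocitrate, 2-oxoglutarate, succinyl-CoA, succinate, fumarate and malate back to oxaloacetate, with the reduced cofactors feeding the respiratory chain. Isocitrate is oxidized by the NAD-dependent enzyme IDH3 and by the NADP-dependent enzymes IDH2, in mitochondria, and IDH1, in the cytosol and peroxisomes, both of which can also run in reverse. In renal cancer the cycle is tied to VHL through its metabolites: the prolyl hydroxylases that prepare hypoxia-inducible factors for VHL use 2-oxoglutarate and release succinate, and fumarate or succinate can inhibit them.

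The 786-O-Ctrl libraries held 22141263 and 15714166 counts, called here the deeper and the shallower library because both table columns carry the same replicate number. The 786-O-VHL libraries held 2807779 counts in replicate 1 and 16114120 in replicate 2, a 7.89-fold range over the 4 libraries. Levels are given as CPM, counts scaled to library size with TMM factors. VHL itself stood at 42.9 and 43.9 CPM in the 786-O-Ctrl libraries against 178 and 163 CPM after restoration, and its log2 fold change was 1.96 (SE 0.07, edgeR FDR = 2.865e-19). Replicates differed by more than sampling noise, with a chi-square per degree of freedom of 2.25 for the 786-O-Ctrl pair and 2.76 for the 786-O-VHL pair. All 10 epithelial and renal markers of a fixed list were detected, and their summed level was 3793 and 3770 CPM in the 786-O-Ctrl libraries against 2520 and 2392 CPM with VHL restored. Most of that fall was VIM, the mesenchymal filament vimentin, with a mean of 1684 CPM against 729.9 CPM. Of the 10, 5 were lower (VIM, KRT8, KRT19, PAX8 and PAX2), 3 were higher (CDH1, EPCAM and CDH6) and 2 (KRT18 and CDH2) did not pass the test. Of 10 markers of other cell types, 4 were in the table, summing to between 10.9 and 15.6 CPM in every library. The part of these markers in the results below was not tested. In bulk RNA, fewer expressing cells and less RNA per cell cannot be told apart.

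Most of these transcripts were lower in 786-O-VHL. IDH2, CS and MDH2 had the largest falls of the 9, FH, SUCLG1 and DLST fell less, and IDH1, IDH3A and OGDH did not pass the test. Thus 6 of the 9 genes were lower and 0 were higher at an FDR below 0.05 in edgeR's quasi-likelihood test, where 31.9% of all genes tested were lower and 32.6% were higher, 64.5% in all. At an unadjusted p below 0.05 the counts were the same, 0 higher and 6 lower, and DESeq2 called 0 higher and 5 lower. Among the 7635 genes with a mean of at least 20 CPM, an abundance that all 9 exceeded, 40.3% were lower and 31.7% were higher. The median log2 fold change of the 9 was -0.26, against 0.02 over all genes tested. In 7 of the 9 the libraries of both groups did not overlap, in each case with 786-O-VHL lower. Such groups made up 80.0% of all genes, 39.2% with 786-O-VHL lower and 40.8% with it higher. None of the 9 passed the 4-fold change at an FDR below 0.01 that the study set for its RNA-seq list. Of all genes tested, 4.46% passed that threshold. For its overlap of RNA and protein changes the study used an FDR below 0.05.

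Added together, the 9 genes reached 1295 and 1259 CPM in the 2 libraries of 786-O-Ctrl. In 786-O-VHL they reached 926 CPM in replicate 1 and 963 CPM in replicate 2. The 786-O-VHL mean was 0.740 times that of 786-O-Ctrl, and 0.754 times without 786-O-VHL replicate 1. The shallow 786-O-VHL replicate 1 held between 69 counts, for IDH3A, and 647 counts, for MDH2, so that its values carry the largest counting error.

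**Figure D1:**
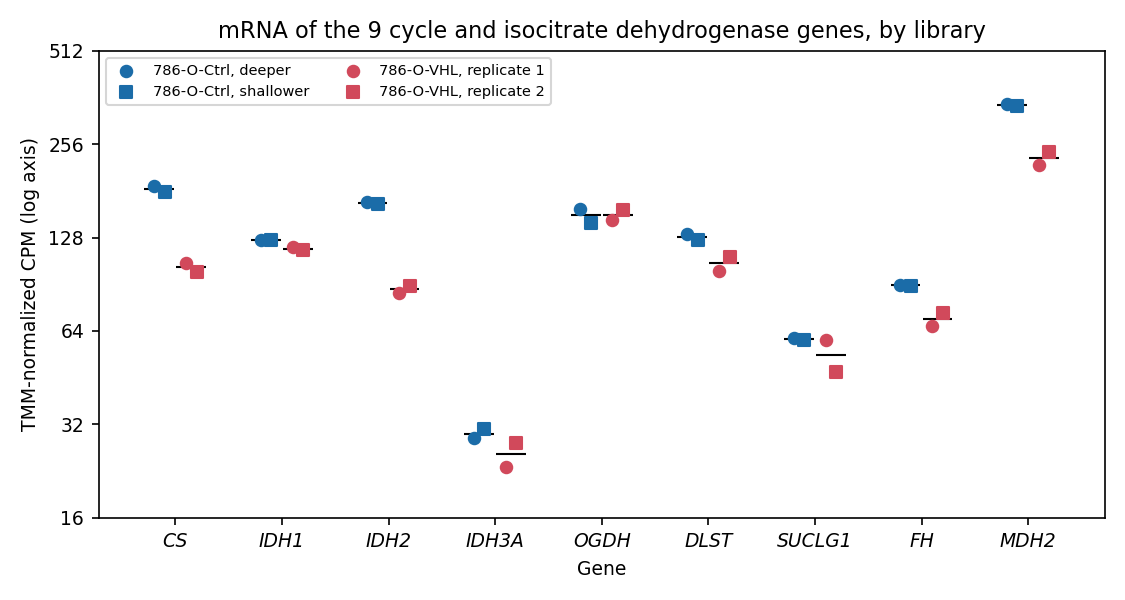
Normalized level (CPM, log axis) of the 9 genes in each of the 4 libraries, with the horizontal line at the mean of each group of 2 libraries. The libraries of 786-O-VHL lie clearly below those of 786-O-Ctrl for CS, IDH2 and MDH2, and among them for OGDH and, through replicate 1, for SUCLG1.

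The promoters of 3 members are shown because these genes fell and differ in the short motifs their promoters hold. Each is the reference sequence around the annotated start of transcription, taken from RefSeq on GRCh38.p14 and written along the strand of the gene. The table held 8 of the 9 members. Motifs were searched on both strands, and capitals mark a match. The letters GCGTG are the hypoxia response element core that hypoxia-inducible factors bind, here without its alternative ACGTG, and CCGGAAG is a core bound by ETS factors. The CS promoter is at chr12:56300281-56300580 on the minus strand and held none of the motifs searched. That of FH is at chr1:241519706-241520005 on the minus strand and held GCGTG at 22 and 14 bases before the start. That of MDH2 is at chr7:76047856-76048155 on the plus strand and held CCGGAAG at 113 and 69 bases before the start.
CS: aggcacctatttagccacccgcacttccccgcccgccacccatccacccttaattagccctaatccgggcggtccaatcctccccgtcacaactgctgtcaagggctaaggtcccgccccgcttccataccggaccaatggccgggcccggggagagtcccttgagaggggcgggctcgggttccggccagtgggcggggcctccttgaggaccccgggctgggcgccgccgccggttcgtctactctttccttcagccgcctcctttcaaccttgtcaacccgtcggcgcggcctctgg
FH: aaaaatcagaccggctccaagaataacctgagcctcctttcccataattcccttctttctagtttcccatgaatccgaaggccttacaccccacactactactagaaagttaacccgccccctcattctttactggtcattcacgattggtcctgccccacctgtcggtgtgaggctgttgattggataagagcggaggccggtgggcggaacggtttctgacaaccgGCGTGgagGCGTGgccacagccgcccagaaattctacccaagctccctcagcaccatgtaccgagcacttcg
MDH2: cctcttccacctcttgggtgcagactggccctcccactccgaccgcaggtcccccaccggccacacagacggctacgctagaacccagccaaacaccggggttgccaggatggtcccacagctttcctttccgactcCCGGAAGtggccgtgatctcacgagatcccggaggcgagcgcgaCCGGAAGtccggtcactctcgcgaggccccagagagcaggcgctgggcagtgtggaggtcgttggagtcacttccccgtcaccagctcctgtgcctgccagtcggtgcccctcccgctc
A gene was counted as holding a motif if the promoter of any of its listed starts did. By this count 5 of the 8 members held GCGTG (FH, IDH1, IDH2, IDH3A and SUCLG1), against 50.4% of protein-coding genes. ACGTG lay in 1 of 8, IDH1, and there in only 1 of its 2 listed promoters, against 28.5%. CCGGAAG lay in 2 of 8, DLST and MDH2, against 16.5%. The NRF1 core CATGCGC lay in 0 of 8, against 6.82%. Genes that fell (FH, IDH2) and genes that did not pass the test (IDH1, IDH3A) both held GCGTG. A match describes these letters only. For IDH2 the 1 listed start was searched, and whether it is the main start of the gene was not tested.

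CS, citrate synthase, forms citrate from acetyl-CoA and oxaloacetate and opens the cycle. The gene (ENSG00000062485.19) lies on chromosome 12 from 56665483 to 56694175, minus strand, in GRCh37, the build of all member positions below. CS stood at 187 and 179 CPM in 786-O-Ctrl and at 106 and 99.4 CPM in 786-O-VHL. Both libraries of 786-O-VHL were lower than both of 786-O-Ctrl, by far more than the distance between replicates. This difference gave a log2 fold change of -0.86 (SE 0.07, 95% interval -0.99 to -0.72, edgeR FDR = 7.791e-12), a level 0.552 times that of 786-O-Ctrl. By rank of p-value CS stood at 882 among all genes tested. Transcripts of other genes share 9.53% of the 50-base words of all its annotated transcripts, so a small part of its reads could belong elsewhere.

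IDH2, the mitochondrial NADP-dependent isocitrate dehydrogenase, also was lower with VHL restored. It (ENSG00000182054.9) lies on chromosome 15 from 90626277 to 90645709, minus strand. The level was 167 and 164 CPM in 786-O-Ctrl against 85.2 and 89.2 CPM in 786-O-VHL. Replicates lay within a few CPM of each other in both groups, and the groups stood far apart. This was a log2 fold change of -0.91 (SE 0.07, 95% interval -1.05 to -0.77, edgeR FDR = 1.932e-12), or 0.532 times the level of 786-O-Ctrl. IDH2 had the smallest p-value of the 9 genes, at rank 736 of all genes tested.

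Its cytosolic and peroxisomal counterpart IDH1 (ENSG00000138413.13, chromosome 2, 209100953 to 209130798, minus strand) did not pass the test. IDH1 stood at 125.7 and 126.0 CPM in 786-O-Ctrl and at 119.4 and 116.5 CPM in 786-O-VHL. The groups did not overlap, but the log2 fold change of -0.10 (SE 0.07, 95% interval -0.23 to 0.03) was within the error of the fit (edgeR FDR = 0.1803). Under scaling by library totals alone its sign turned, to 0.03. On the log2 scale the interval of IDH1 ends at -0.23, and that of IDH2 begins at -0.77.

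The balance between the 2 NADP-dependent isocitrate dehydrogenases can be read within each library, where scaling has no part. Counts of IDH1 per count of IDH2 were 0.752 (95% exact binomial interval 0.715 to 0.791) and 0.769 (0.724 to 0.817) in 786-O-Ctrl. In 786-O-VHL they were 1.40 (1.19 to 1.66) and 1.31 (1.22 to 1.40). IDH2 had more counts than IDH1 in both 786-O-Ctrl libraries, and IDH1 had more in both 786-O-VHL libraries. Counts also depend on transcript length, so the ratio shows a shift between groups and not which gene led. Per kilobase of the canonical transcript the lead changed too. Per kilobase of all annotated exons IDH2 stayed above IDH1, at 59.4 against 26.8 CPM in 786-O-Ctrl and 31.3 against 25.1 CPM in 786-O-VHL. The mean ratio was 0.761 ± 0.0122 (SD, n = 2) and 1.35 ± 0.0684 (SD, n = 2). With 2 libraries against 2, an exact two-sided permutation test cannot go below p = 0.333. These intervals, and those of the other count ratios, cover counting error only.

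IDH3A encodes the catalytic subunit of the NAD-dependent isocitrate dehydrogenase, the form that drives the forward cycle. The gene (ENSG00000166411.14) lies on chromosome 15 from 78423840 to 78464287, plus strand, and genes on the opposite strand cover 38.8% of its exon bases. Since no source used here states whether strand was used in counting, reads of those neighbours could not be told apart from its own. IDH3A stood at 29.0 and 30.8 CPM in 786-O-Ctrl and at 23.4 and 28.0 CPM in 786-O-VHL. The libraries of 786-O-VHL were lower, by about as much as they differed from each other. The log2 fold change of -0.15 (SE 0.11, 95% interval -0.37 to 0.08) did not pass the test (edgeR FDR = 0.238). Without 786-O-VHL replicate 2 it was -0.35 (edgeR FDR = 0.1115), and on thinned counts -0.40 (edgeR FDR = 0.05396), neither past the threshold. The regulatory subunits of the same enzyme fell. IDH3G went from 58.3 ± 1.11 to 40.3 ± 0.0747 CPM (SD, n = 2 each; log2 fold change -0.54, edgeR FDR = 2.351e-06). IDH3B went from 86.2 ± 4.82 to 68.6 ± 0.130 CPM (SD, n = 2 each; log2 fold change -0.33, edgeR FDR = 2.682e-04). Whether IDH3A differed from them was not tested. Counts of IDH3A per count of IDH3G were 0.490 and 0.536 for 786-O-Ctrl. For 786-O-VHL they were 0.580 (95% exact binomial interval 0.425 to 0.787) in replicate 1 and 0.695 (0.616 to 0.783) in replicate 2. The interval of replicate 1 held both 786-O-Ctrl values, so its distance from them was within counting error. Counts of IDH3A per count of IDH3B, 0.323 and 0.373 against 0.342 and 0.407, overlapped between the groups.

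OGDH is the first, thiamine-dependent component of the 2-oxoglutarate dehydrogenase complex, which turns 2-oxoglutarate into succinyl-CoA. It (ENSG00000105953.15) lies on chromosome 7 from 44646171 to 44748665, plus strand. OGDH stood at 158.8 and 142.8 CPM in 786-O-Ctrl and at 146.2 and 157.6 CPM in 786-O-VHL. The 786-O-VHL values lay between the 786-O-Ctrl values. The log2 fold change was 0.03 (SE 0.07, 95% interval -0.12 to 0.17, edgeR FDR = 0.7634), so a change larger than 0.17 in either direction lies outside the interval. Under scaling by library totals alone OGDH passed the test as higher, at 0.16 (edgeR FDR = 0.0394).

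DLST, the succinyltransferase core of the same complex, fell by a small amount. Its gene (ENSG00000119689.15) lies on chromosome 14 from 75348594 to 75370446, plus strand. DLST stood at 131.8 and 125.9 CPM in 786-O-Ctrl and at 100.1 and 111.2 CPM in 786-O-VHL. Every 786-O-VHL value was lower than every 786-O-Ctrl value, with a log2 fold change of -0.26 (SE 0.07, 95% interval -0.40 to -0.12, edgeR FDR = 0.001638). Without the deeper 786-O-Ctrl library it was -0.24 and missed the threshold (edgeR FDR = 0.0606), as it did at -0.13 under scaling by library totals alone and at -0.14 in libraries thinned to the shallowest. DLD, the flavoprotein that this complex shares with pyruvate dehydrogenase, did not pass the test (log2 fold change -0.09, 95% interval -0.23 to 0.05, edgeR FDR = 0.2795), and its sign turned under scaling by library totals alone. Without 786-O-VHL replicate 1, DLD passed as lower (-0.13, edgeR FDR = 0.0498).

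OGDHL, a paralog of OGDH that can take its place in the complex, was the only 1 of the 11 other cycle enzymes tested that rose. It was counted 31 and 22 times in the 786-O-Ctrl libraries against 122 and 453 times with VHL restored, or at 1.47 and 1.46 CPM against 41.4 and 26.9 CPM. All 786-O-Ctrl values were near 0 beside those of 786-O-VHL, where replicate 1 was well above replicate 2. It rose by a log2 fold change of 4.40 (SE 0.22, 95% interval 3.95 to 4.84, edgeR FDR = 3.336e-16), a level 21.1 times that of 786-O-Ctrl. No 50-base word of its annotated transcripts was shared with another gene. Counts of OGDHL per count of OGDH were 0.00927 and 0.0102 for 786-O-Ctrl against 0.283 (95% exact binomial interval 0.230 to 0.347) and 0.171 (0.154 to 0.189) for 786-O-VHL. OGDH thus kept the larger count in every library.

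SUCLG1, the subunit common to both forms of succinyl-CoA synthetase, gave a call that rests on few libraries. The gene (ENSG00000163541.12) lies on chromosome 2 from 84650652 to 84687169, minus strand. SUCLG1 stood at 60.97 and 60.01 CPM in 786-O-Ctrl, and at 60.04 CPM in replicate 1 and 47.3 CPM in replicate 2 of 786-O-VHL. Replicate 1 lay between the 786-O-Ctrl values and replicate 2 was lower. The log2 fold change was -0.26 (SE 0.09, 95% interval -0.44 to -0.09, edgeR FDR = 0.009376). Without 786-O-VHL replicate 2 it was -0.02 (edgeR FDR = 0.916), and leaving out either 786-O-Ctrl library also ended the call, as did scaling by library totals alone and thinning. DESeq2 did not call it (-0.23, adjusted p = 0.171). The GTP-forming partner SUCLG2 was lower (log2 fold change -0.25, edgeR FDR = 0.004705), a call lost by DESeq2 (adjusted p = 0.0667), under scaling by library totals alone, on thinned counts, and without the shallower 786-O-Ctrl library or 786-O-VHL replicate 2. The ATP-forming partner SUCLA2 did not pass the test (-0.15, 95% interval -0.37 to 0.08, edgeR FDR = 0.2526). Transcripts of other genes share 12.9% of the 50-base words of SUCLG2, whose count is uncertain to that extent.

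FH, fumarate hydratase, hydrates fumarate to malate, and its inherited loss causes a hereditary kidney cancer syndrome. It (ENSG00000091483.6) lies on chromosome 1 from 241660811 to 241683099, minus strand. FH stood at 90.1 and 89.5 CPM in 786-O-Ctrl and at 66.5 and 73.1 CPM in 786-O-VHL. The groups were apart, the 786-O-Ctrl libraries being nearly equal. FH fell with a log2 fold change of -0.33 (SE 0.07, 95% interval -0.48 to -0.18, edgeR FDR = 2.093e-04). Its promoter, printed above, held GCGTG in 2 places.

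MDH2, mitochondrial malate dehydrogenase, closes the cycle by oxidizing malate to oxaloacetate and was the most abundant of the 9 transcripts. Its gene (ENSG00000146701.12) lies on chromosome 7 from 75677369 to 75696826, plus strand. MDH2 stood at 345 and 341 CPM in 786-O-Ctrl and at 219.5 and 241 CPM in 786-O-VHL. Both 786-O-VHL libraries were lower, by several times the distance between them. MDH2 fell with a log2 fold change of -0.56 (SE 0.06, 95% interval -0.69 to -0.43, edgeR FDR = 1.597e-08), a level 0.680 times that of 786-O-Ctrl. Of its 50-base words, 0.0% were shared with other genes, and no annotated gene overlapped its exons.

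**Figure D2:**
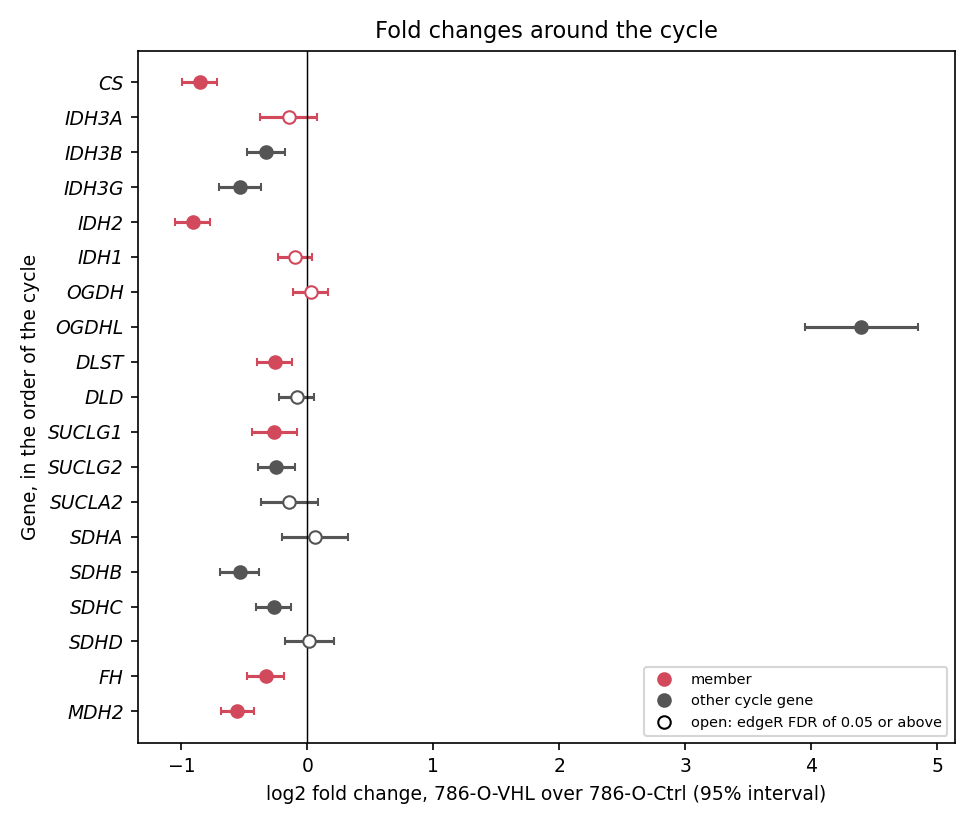
Log2 fold change (786-O-VHL over 786-O-Ctrl) with its 95% interval for the 9 genes (red) and other cycle enzymes tested (grey), in the order of the cycle, where open points did not pass an edgeR FDR below 0.05. CS, IDH2 and MDH2 lie furthest to the lower side among the 9, with OGDH at 0.03, and OGDHL lies far to the higher side at 4.40.

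The other enzymes of the cycle were read from a list of 11 genes, all of them tested. Of these, 6 were lower, 1 was higher and 4 did not pass the test, with a median log2 fold change of -0.25, beside 31.9% lower and 32.6% higher among all genes tested. Under scaling by library totals alone, 3 were lower and 1 was higher. Several genes given here were chosen for mention after their values were seen. SDHB, the iron-sulfur subunit of succinate dehydrogenase, which oxidizes succinate and hands the electrons to the respiratory chain, went from 76.4 ± 0.697 to 51.5 ± 3.22 CPM (SD, n = 2 each; log2 fold change -0.54, SE 0.08, edgeR FDR = 4.766e-07). Its membrane anchor SDHC was also lower (-0.27, edgeR FDR = 0.001214), a call lost under scaling by library totals alone. The catalytic subunit SDHA (0.06, 95% interval -0.20 to 0.32, edgeR FDR = 0.7038) and the anchor SDHD (0.01, 95% interval -0.18 to 0.21, edgeR FDR = 0.9125) did not pass the test. SDHA shares 24.4%, SDHD 13.3% and SDHC 11.8% of 50-base words with other genes, pseudogenes among them, and these counts are uncertain.

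Levels of the 9 genes can be compared with each other only per length. Per kilobase of the canonical transcript, the order in 786-O-Ctrl was MDH2, CS, IDH2, IDH1, FH, SUCLG1, DLST, OGDH and IDH3A. MDH2 led with 157.9 ± 1.27 CPM per kilobase (SD, n = 2), followed by CS with 62.9 ± 1.90 and IDH2 with 62.3 ± 0.877. CS and IDH2 overlapped, while each other pair of neighbours was apart. IDH3A was lowest, at 7.32 ± 0.324 CPM per kilobase. In 786-O-VHL the order was MDH2, IDH1, SUCLG1, FH, DLST, OGDH, CS, IDH2 and IDH3A. MDH2 still led, with 106 ± 7.07 CPM per kilobase, and IDH3A was still lowest, with 6.29 ± 0.789. CS and IDH2, at 35.2 ± 1.56 and 32.8 ± 1.07 CPM per kilobase, now ranked after OGDH, at 36.2 ± 1.92, and before IDH3A. From SUCLG1 to CS each neighbour overlapped the next, so the order of neighbours among these 5 was not resolved. Both values of SUCLG1 and of FH lay above both values of CS. When all annotated exons of a gene served as its length, a choice made after the data were seen, MDH2 stayed highest and IDH3A lowest in both groups. The order between them changed, and FH moved from 50.1 to 9.60 CPM per kilobase in 786-O-Ctrl.

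**Figure D3:**
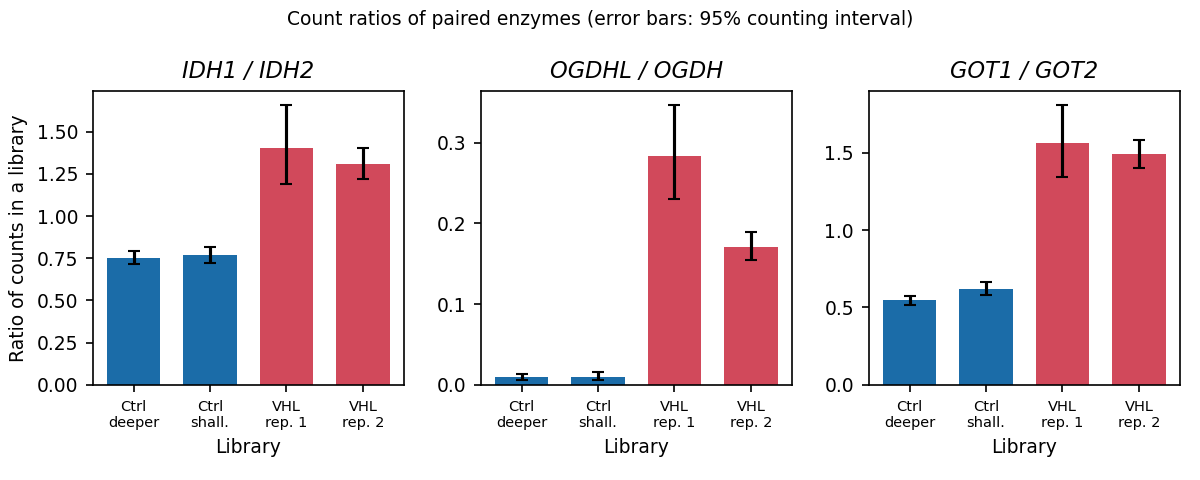
Ratios of counts between paired enzymes within each library as bars from 0 on a linear axis, with the 95% exact binomial counting interval as error bars. IDH1 per IDH2 and GOT1 per GOT2 lie below 1 in both 786-O-Ctrl libraries and above 1 in both 786-O-VHL libraries, and OGDHL per OGDH stays below 1 in all 4. A ratio of 1 marks equal counts, not equal levels per length.

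The lipoyl cofactor carried by DLST is made by LIAS and attached by LIPT1, and the assembly factors of succinate dehydrogenase complete that enzyme. Of 8 such maturation genes tested, 3 were higher, 1 was lower and 4 (SDHAF1, SDHAF3, LIPT2 and MRPS36, between -0.54 and 0.29) did not pass the test, with a median log2 fold change of 0.27. Over all genes tested, 32.6% were higher and 31.9% lower, with a median of 0.02. SDHAF1 passed as higher under scaling by library totals alone (0.43, edgeR FDR = 0.0214) and on thinned counts (0.77, edgeR FDR = 0.0195). SDHAF3 passed as lower without 786-O-VHL replicate 1 (-0.36, edgeR FDR = 0.0314). LIAS rose from 15.9 ± 0.279 to 31.5 ± 0.889 CPM (SD, n = 2 each; log2 fold change 0.99, SE 0.12, edgeR FDR = 1.741e-08), so this gene rose while DLST fell. LIPT1 rose from a low level (log2 fold change 1.08, edgeR FDR = 0.00128), a call lost when the libraries were thinned to the shallowest (edgeR FDR = 0.0674). SDHAF4, an assembly factor of SDHA, stood at 9.78 and 8.51 CPM in 786-O-Ctrl and at 10.9 and 19.9 CPM in 786-O-VHL. Its log2 fold change was 0.95 (edgeR FDR = 2.81e-05), and 0.23 (edgeR FDR = 0.543) without 786-O-VHL replicate 2. SDHAF2, which helps to attach the flavin of SDHA, was lower (-0.46, edgeR FDR = 0.0278), but the call was lost by DESeq2 (adjusted p = 0.157), under scaling by library totals alone, on thinned counts, without either 786-O-Ctrl library and without 786-O-VHL replicate 2. A gene on the same strand covers 44.8% of its exon bases, and its count is uncertain.

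The list of enzymes and carriers that use citrate and malate outside the cycle held more genes that fell than rose. Of 9 tested, 6 were lower, 1 was higher and 2, the malic enzymes ME2 (0.02) and ME3 (0.19), did not pass the test. The median log2 fold change was -0.60. A further malic enzyme, ME1, was among those lower (log2 fold change -0.595, edgeR FDR = 9.988e-08). Among all genes tested, 31.9% were lower and 32.6% higher, and 40.3% were lower among those with a mean of at least 20 CPM. SLC25A1, the mitochondrial citrate carrier, fell from 198 ± 7.81 to 110.4 ± 0.721 CPM (SD, n = 2 each; log2 fold change -0.84, SE 0.07, edgeR FDR = 9.102e-12). MDH1, the cytosolic counterpart of MDH2, fell from 152 ± 2.64 to 94.3 ± 1.03 CPM (SD, n = 2 each; log2 fold change -0.70, SE 0.07, edgeR FDR = 4.099e-10). ACLY, which cleaves cytosolic citrate to acetyl-CoA, had a log2 fold change of -0.68 (edgeR FDR = 1.395e-10) and ACO1, the cytosolic aconitase, -0.40 (edgeR FDR = 1.946e-05). The dicarboxylate carrier SLC25A10 was lower as well (-0.92, edgeR FDR = 7.171e-06), but another gene on the same strand covers 46.6% of its exon bases, and its count is uncertain. SLC25A11, the 2-oxoglutarate and malate carrier, was higher (0.25, edgeR FDR = 0.007368), a call lost by DESeq2 (adjusted p = 0.111) and without the shallower 786-O-Ctrl library or 786-O-VHL replicate 2.

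Genes that feed carbon into the cycle moved in both directions. Of the 7 tested, 4 were lower, 2 were higher and 1, GLUD2, did not pass the test (-0.86, 95% interval -1.73 to 0.00), beside 31.9% lower and 32.6% higher among all genes tested. The aminotransferases that exchange 2-oxoglutarate and glutamate were split by compartment for aspartate. The cytosolic GOT1 rose from 93.8 ± 3.75 to 157.2 ± 1.67 CPM (SD, n = 2 each; log2 fold change 0.74, SE 0.07, edgeR FDR = 7.318e-11). The mitochondrial GOT2 fell from 161 ± 8.36 to 103.4 ± 2.32 CPM (SD, n = 2 each; log2 fold change -0.63, edgeR FDR = 3.667e-09). Counts of GOT1 per count of GOT2 were 0.545 and 0.621 for 786-O-Ctrl against 1.56 and 1.49 for 786-O-VHL. This shift had the same direction as that of IDH1 per count of IDH2. GPT2, the mitochondrial alanine aminotransferase, was higher (log2 fold change 0.69, edgeR FDR = 6.648e-10). PC, pyruvate carboxylase, which makes the oxaloacetate that CS consumes, was lower (-0.86, edgeR FDR = 9.039e-08). The glutamate dehydrogenase GLUD1 was lower (-0.23, edgeR FDR = 0.002471), a call lost without the shallower 786-O-Ctrl library, under scaling by library totals alone and on thinned counts.

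2-Hydroxyglutarate, a reduced relative of the 2-oxoglutarate made by the isocitrate dehydrogenases, is oxidized back in its D form by D2HGDH. D2HGDH rose from 13.6 ± 0.0503 to 23.2 ± 2.63 CPM (SD, n = 2 each; log2 fold change 0.71, SE 0.13, edgeR FDR = 3.361e-05).

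IDH2 served as the member with the clearest fall when genes of like pattern were sought. Among 7635 genes with a mean of at least 20 CPM, the closest over the 4 libraries by root mean square distance of centred log2 CPM were ZNF207 (distance 0.00857, log2 fold change -0.92), PLOD1 (0.0130, -0.89) and BIRC5 (0.0138, -0.91). None of them is an enzyme of the cycle.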

How the data were processed

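RNA was sequenced in 4 libraries, with 2 for each of the groups 786-O-Ctrl and 786-O-VHL. The authors deposited raw read counts per gene, in 1 table of 12912 genes with Ensembl identifiers and symbols. Per the labels and the study's methods, TruSeq libraries were sequenced and aligned to hg19, and the submitters' processing notes name CASAVA and STAR. For the counting tool, annotation and strand setting, nothing is given in the sources used here. Both 786-O-Ctrl columns carry the same replicate number.

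Differences were tested on these counts in R 4.3.3 by edgeR 4.0.16 (quasi-likelihood F test, TMM factors, Benjamini-Hochberg FDR below 0.05 over all 12335 genes kept by filterByExpr with a minimum count of 10, which removed 577). Alternatives were DESeq2, the tool of the study, here in version 1.42.0, and limma 3.58.1 voom. The design estimates the spread from 2 residual degrees of freedom per gene, shared across genes (prior df 25.5, coefficient of variation 4.31%). CPM are TMM-normalized, SE follow from F, and a count of 3 corresponds to between 0.142 and 1.02 CPM per library. Positions, exon overlap and shared 50-base words come from GENCODE on GRCh37, where 12749 of the 12912 identifiers matched. The scripts were tested on simulated data.

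The 9 genes and all lists were chosen with earlier results of these data known. The text names the 9 genes, VHL, up to 3 genes per direction and list at an FDR below 0.01, the genes of like pattern, and others chosen after their values were seen. Some genes counted in the lists are not reported here by name.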

Additional observations from a re-analysis of the deposited data

How the results depend on the processing

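Across 11 alternatives, CS, IDH2, MDH2 and FH stayed lower and past the threshold in each, with log2 fold changes from -0.89 to -0.72, -0.96 to -0.78, -0.65 to -0.42 and -0.44 to -0.20. DLST was called in 8 of 11 and SUCLG1 in 5 of 11. Of the 9 genes, between 4 and 6 were called: 5 by DESeq2, 4 in libraries thinned to the shallowest, and 4 to 6 when 1 library was left out. Scaling by library totals alone raised the median of all genes to 0.15 on the log2 scale and turned the split of all calls from 4017 higher and 3939 lower to 5077 higher and 3097 lower. It gave 1 higher and 4 lower among the 9, reduced the other cycle enzymes called from 7 to 4, and turned IDH1 to 0.033 and DLD to 0.048. Other reversals concerned genes that did not pass the test with TMM factors. On thinned counts OGDH stood at -0.070, SDHA at -0.078, SDHAF3 at 0.15 and MRPS36 at -0.25. SDHD was 0.00 by limma-voom and -0.0014 with RLE factors. Leaving out 1 library gave -0.06 to 0.0954 for OGDH, -0.133 to 0.0111 for DLD, -0.215 to 0.217 for SDHA, -0.0429 to 0.17 for SDHD, -0.0642 to 0.319 for MRPS36 and -0.0486 to 0.0839 for ME2. In these cases the cause was not tested. Over 47 genes, 457 of the single-gene values kept direction and side of the threshold, 32 lost the call, 6 gained it and 18 turned.

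No paired analysis was possible because both 786-O-Ctrl columns carry the same replicate number. The 2807779 counts of 786-O-VHL replicate 1 limit every value of the 786-O-VHL group, and 2 libraries per group allow no exact test below p = 0.333.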
